A study of Mus musculus with 3 samples.

Results

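Neutrophils and granulocyte precursors were read out of single-cell RNA profiles of the mouse glandular stomach (hindstomach) at embryonic day 18.5. A cell was counted as a member when at least 3 of 7 granulocyte genes (Ngp, Camp, Retnlg, Csf3r, Mpo, Elane and Ctsg) each had at least 1 unique molecular identifier (UMI, 1 counted RNA molecule) and when C1qa, C1qb and C1qc, the complement genes of tissue macrophages, held at most 2 UMIs together. This gave 98 members among 21602 cells that had at least 500 detected genes and at most 20% mitochondrial UMIs. The control library (Shh-Cre) held 14 of them, the YAP5SA library (Shh-Cre;YAP5SA) 68, and the Yap knockout library (Shh-Cre;YaploxP/loxP) 16. All 3 genotypes thus carry Shh-Cre, a recombinase driven in epithelial cells by Shh, and blood cells such as the members are not known to express it. YAP5SA is a form of the Hippo pathway effector YAP that resists inhibitory phosphorylation. Each genotype is 1 library, and its number of embryos is not stated in the labels, so no test between genotypes was possible. Members were chosen by the levels of the 7 genes, and those levels are given below only as a description.

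Neutrophils are short-lived phagocytes that fill their granules in a fixed order while they mature. Promyelocytes make the primary (azurophil) granule proteases and myeloperoxidase, myelocytes and metamyelocytes the secondary and tertiary granule proteins such as lactoferrin and cathelicidin, and late cells turn on receptors, cytokines and survival genes as they leave the bone marrow or fetal liver. In an inflamed tissue they are drawn in by ligands of the receptor Cxcr2 and can themselves release interleukin 1β and further chemokines.

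Members made up 0.190% of the control library (exact 95% Clopper-Pearson interval 0.104 to 0.318), 0.753% of the YAP5SA library (0.585 to 0.954) and 0.308% of the knockout library (0.176 to 0.499). All intervals and count floors given here cover counting error only. When every cell was thinned to 1000 UMIs before the rule was applied, the shares were 0.163%, 0.343% and 0.212%, and no cell was too shallow to be kept. The median passed cell held 4949.5, 5255 and 5021 UMIs in control, YAP5SA and knockout libraries respectively, while the median member held 2027.5, 5758.5 and 3072. The libraries held 48910624, 65843658 and 40857358 UMIs in 7692, 9439 and 5739 deposited cells. Cell names are serial numbers, not barcodes, so shared barcodes could not be counted, and 7, 19 and 5 members have a name that another library also uses.

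The rule's lower edge was thin in the YAP5SA library. Of its 68 members, 60 met the limit with exactly 3 rule genes, and their median total was 4 rule gene UMIs, against 54 in the 11 control members and 48 in the 11 Yap knockout members with 3. Cells just outside, with 2 rule genes, numbered 50, 278 and 42, with a median of 2, 2 and 4 rule gene UMIs. At the C1q limit, 25 YAP5SA members held exactly 2 C1q UMIs and 30 further cells were left out with 3, where the median over all passed YAP5SA cells was 2 and that in the other libraries 0. In all, 163 of 231 YAP5SA cells with 3 or more rule genes were left out by that limit, against 3 of 17 control and 1 of 17 Yap knockout cells.

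S100a8 and S100a9, which encode the calprotectin subunits that fill the neutrophil cytosol, were not in the rule and were used to check the label. S100a8 and S100a9 together had 20 or more UMIs in 14 of 14 control members, 35 of 68 YAP5SA members (51.5%, 39.0 to 63.8) and 14 of 16 Yap knockout members. That limit was set after the values were seen. It fell between 19 UMIs in the highest YAP5SA member below it and 23 in the lowest above it. These 63 cells are called S100-high members. Their summed rule gene level was 37772, 35748 and 32902 CPM in control, YAP5SA and knockout libraries respectively, where CPM scales the summed UMIs of a set to a fixed total so that sets of unequal depth can be compared. Those values were fixed by the choice of cells. Of genes that neither the rule nor the S100 limit used, Lcn2 (lipocalin) had a UMI in 14 of 14 control, 32 of 35 YAP5SA and 14 of 14 knockout cells, and Pglyrp1 in 14, 34 and 14. In YAP5SA cells outside the members these were found in 23.8% and 17.3%. Lcn2 was found in 44.5% of the Epcam-positive epithelial cells of YAP5SA, so it is less particular to neutrophils in that library. Among the rule genes, Ngp had a UMI in 32 of the 35 of YAP5SA (91.4%), against 28.5% of the Epcam-positive epithelial cells there, whose median depth was 13083 UMIs against 3163. The same epithelial share was 7.20% in the control. The Ngp share of the S100-high members was raised by the rule itself, so it is no check of the label. Where 3 values follow each other below, they are those of the control, YAP5SA and Yap knockout libraries in that order.

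Most of the 33 S100-low members of YAP5SA held little neutrophil RNA, which for the S100 pair follows from the limit. They held 3 or 4 rule gene UMIs each, 23 of them had no rule gene above 1 UMI, and their median of S100a8 and S100a9 together was 1 UMI. Their summed rule gene level was 343.3 CPM. That lies near the 294.3 CPM of all YAP5SA cells outside the members, above the 71.9 CPM of YAP5SA cells with under 3 UMIs of the S100 pair, and above the 63.0 CPM of Epcam-positive epithelial cells of that library. The same epithelial level was 17.1 CPM in the control and 15.6 in the Yap knockout. Lactoferrin (Ltf) had a UMI in 3 of the 33, against 20 of the 35 S100-high members. The S100-low members were deep, with a median of 8883 UMIs against 3163. Among them 7 held 20 or more epithelial UMIs, 10 held 100 or more collagen and other stromal UMIs, 1 held 1000 or more haemoglobin UMIs and 16 held none of these. One had the mast cell protease profile, with 170 UMIs of Tpsb2, 127 of Cma1 and 85 of Cpa3. The Yap knockout had 2 S100-low members, of which one held 133 UMIs of Mcpt8 and 155 of Prss34, both basophil proteases. Lcn2 and Pglyrp1 each had a UMI in 12 of the 33 YAP5SA cells. Just under the limit, 3 cells with 19, 16 and 14 UMIs of the S100 pair held 13, 22 and 9 UMIs of Il1b, an inflammatory cytokine gene, and the lowest cells above it had 23 UMIs of the pair and 7 or 6 of Il1b, so the limit does not part 2 kinds of cell. For cells with the mast cell and basophil proteases the data go against the label, for most other S100-low cells they do not bear it out, and the part of free RNA in their counts was not tested.

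**Figure D1:**
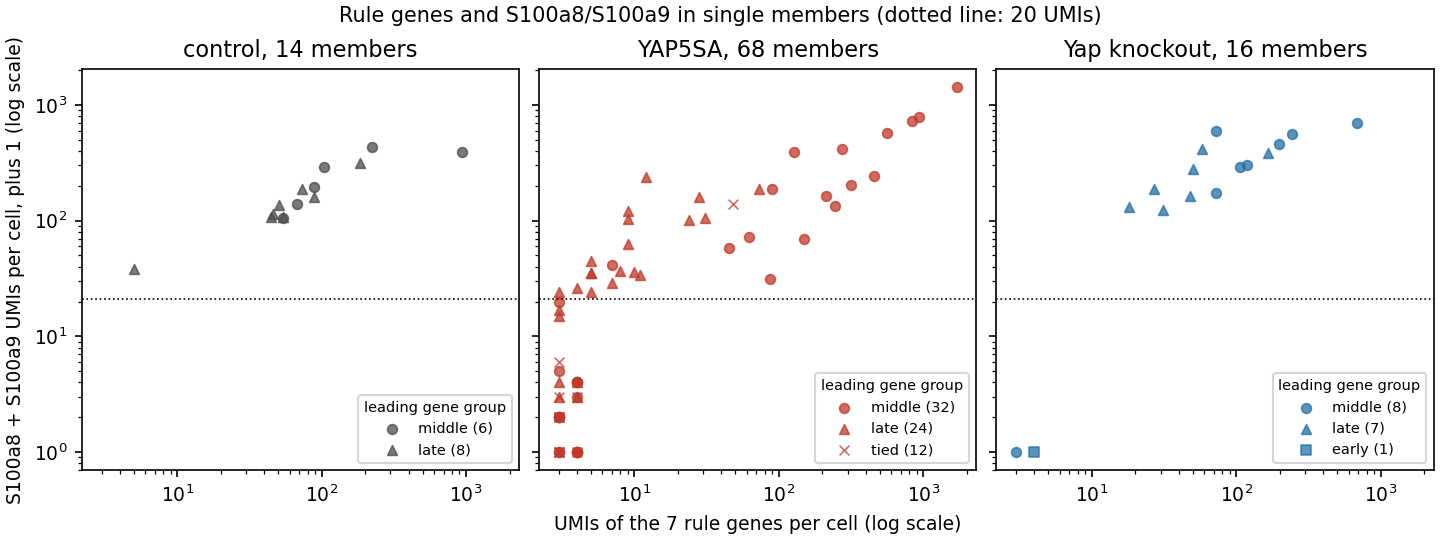
Each point is 1 member, with its UMIs of the 7 rule genes (x axis, log scale) and of S100a8 plus S100a9 with 1 added (y axis, log scale), by library and by the gene group that leads in it. All 14 control and 14 of 16 Yap knockout members lie above the dotted line at 20 UMIs, while 33 of the 68 YAP5SA members lie below it at 3 or 4 rule gene UMIs.

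Cells were also counted by genes outside the rule. Cells with 10 or more UMIs each of S100a8 and S100a9, called S100 cells below, numbered 21 in the control (0.285%, 0.176 to 0.435), 216 in YAP5SA (2.39%, 2.09 to 2.73) and 47 in the Yap knockout (0.904%, 0.665 to 1.20). These intervals are over the cells of 1 library each and do not compare genotypes. At 30 UMIs each the shares were 0.217%, 1.01% and 0.635%. At 1 UMI or more, S100a8 was found in 16.0%, 55.7% and 24.9% of Epcam-positive cells and in 7.79%, 35.9% and 12.8% of all cells outside the members, and the part of free RNA in the S100 cell counts was not tested. Members were 14, 33 and 14 of these cells, so the rule missed 7 S100 cells of the control, 183 of YAP5SA and 33 of the Yap knockout. Of the 183, 25 were left out by the C1q limit, 58 had 2 rule genes, 68 had 1 and 32 had none. Their median depth was 2008 UMIs and their median S100a8 and S100a9 total 56 UMIs, against 3163 and 102 in the S100-high members.

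**Figure D2:**
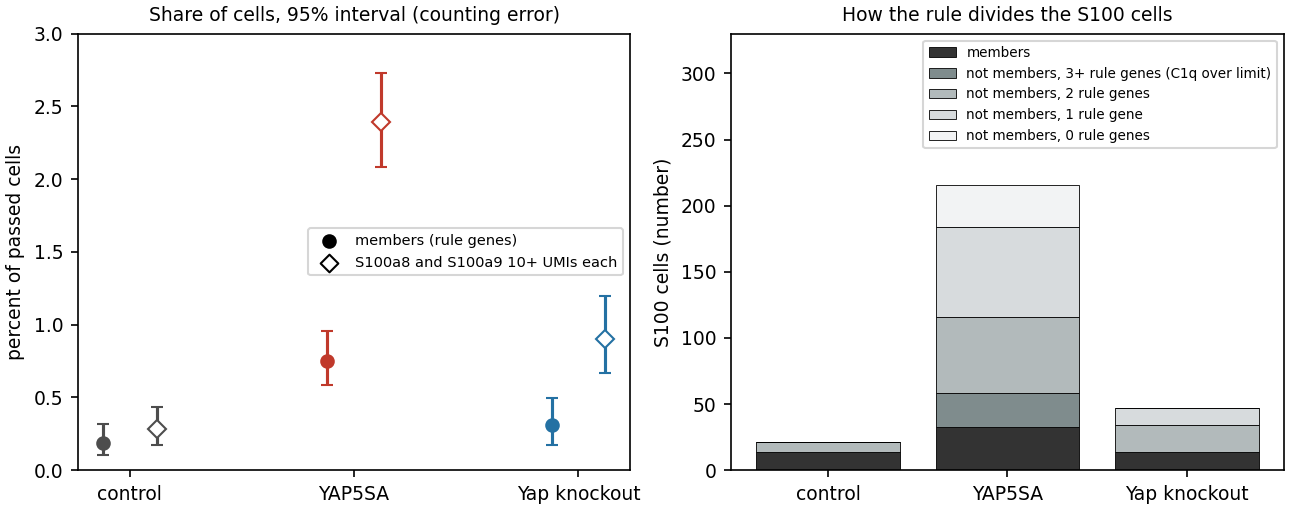
Left, the percent of passed cells that were members (circles) or S100 cells (diamonds) in each library, with exact 95% intervals. Right, the number of S100 cells by how the rule sorted them, with 183 of the 216 YAP5SA cells outside the members.

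Cells with 10 or more UMIs of 3 primary granule genes were rare and lay mostly outside the members. Mpo (myeloperoxidase), Elane (neutrophil elastase) and Ctsg (cathepsin G) together reached 10 or more UMIs in 2 control cells, 5 YAP5SA cells and 1 Yap knockout cell. Only 1 of these 8 cells was a member. It was a control cell with 45 UMIs of Elane, 44 of Prtn3 (proteinase 3) and 2 of Mpo beside 377 of Ngp and 509 of Camp. The C1q limit left out 4 of the 5 YAP5SA cells. The richest of these held 62039 UMIs, with 576 of Mpo, 650 of Elane, 398 of Ctsg and 679 of Prtn3, no Ngp or Camp, and 17 C1q UMIs. Another held 163, 383 and 28 UMIs of Mpo, Elane and Ctsg together with 555 of Camp and 63 of Ngp. A YAP5SA member under that limit held 64 UMIs of Prtn3, 5 of Elane and 2 of Mpo beside 216 of Ngp, 705 of Camp and 9 of Mki67, a gene of dividing cells. Among the 5 YAP5SA cells, that with the fewest UMIs of the 3 genes held 12 of Elane and 0 of Mpo and Ctsg beside 146 of Lyz2. Ly6c2, a monocyte gene, had 60 UMIs in it and 3 to 95 in the others. The Yap knockout cell held 10 UMIs of Ctsg and 0 of Mpo, Elane and Prtn3, beside 6 of Cpa3 and 3 of Cma1, both mast cell genes. The cell type of these cells was not tested.

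Members were then sorted by which gene group led in each: primary granule genes (early), Ngp and Camp (middle), or Retnlg and Csf3r (late). These ranges divide a continuum and are not cell types. No S100-high member was early. The upper Clopper-Pearson limit of that share was 10.0% in YAP5SA and 23.2% in each of the other libraries. It covers only the chosen cells and does not bound the early share of the tissue, since the filters removed early cells. In YAP5SA, the early cells with 10 or more primary granule UMIs that the C1q limit left out held 18, 5 and 8 UMIs of the S100 pair, also under its limit of 20. Middle and late S100-high members numbered 6 and 8 in the control, 16 and 18 in YAP5SA with 1 tie, and 7 and 7 in the Yap knockout. The late share was 57.1% (28.9 to 82.3), 51.4% (34.0 to 68.6) and 50% (23.0 to 77.0), with intervals over the cells of 1 library each. Over all 68 YAP5SA members 32 were middle, 24 late and 12 tied, 11 of the ties being S100-low cells.

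The rule genes themselves showed where the spread lay. Ngp (neutrophilic granule protein) ran from 0 through a median of 10.5 to 377 UMIs per control member, from 0 through 4 to 717 in YAP5SA S100-high members and from 0 through 14.5 to 284 in those of the Yap knockout. Camp (cathelicidin) ran from 0 through 15 to 509, from 0 through 1 to 982, and from 0 through 27.5 to 400. Retnlg (resistin-like γ, a marker of late neutrophils) ran from 1 through 28.5 to 144, from 1 through 6 to 79, and from 1 through 24 to 141. A few YAP5SA cells carried very high Ngp and Camp while the median cell carried little, and every S100-high member of the 3 libraries had Retnlg, at a summed 8778, 2728 and 8130 CPM in control, YAP5SA and knockout libraries respectively. Csf3r, the receptor for granulocyte colony-stimulating factor, had a UMI in 4 of 14, 19 of 35 and 9 of 14.

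Secondary and tertiary granule genes outside the rule were abundant in the S100-high members of every library. Ltf, which encodes the iron-binding lactoferrin, ran from 0 through a median of 8 to 34 UMIs per control member, from 0 through 1 to 320 in YAP5SA and from 0 through 16 to 91 in the Yap knockout. Its summed level was 2919.9, 5997 and 6345 CPM, so it was 2.05-fold (1.74 to 2.45) higher in YAP5SA and 2.17-fold (1.80 to 2.64) higher in the Yap knockout than in the control. The YAP5SA sum came from 20 of 35 cells, and the groups overlapped. Lcn2, the siderophore-binding lipocalin, stood at 8198, 10376 and 11320 CPM, Lyz2 (lysozyme) at 3706, 3972 and 5304, and Pglyrp1, a peptidoglycan recognition protein, at 5147, 4139 and 4542. Chil3, a chitinase-like protein, stood at 112.3, 797.8 and 416 CPM, but in only 2, 8 and 3 cells.

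Read as a list, 2 of the 12 measured granule genes outside the rule were at least 2-fold higher in YAP5SA than in the control (Ltf and Chil3) and 0 were lower. Measured means 200 CPM or more in either sum, and the fold is of CPM with 50 added. Over all 734 genes measured in S100-high members 9.95% were higher by that limit and 8.04% lower, and the list's median log2 ratio was −0.16 against −0.05 over all. In the Yap knockout 4 of 12 were higher (Ltf, Chil3, Mmp8 and Cd177) and 0 lower, against 10.5% and 14.5% of all 754 genes, with a median of 0.67 against −0.01. Mmp8, the neutrophil collagenase, was at 467.9, 223.1 and 1474 CPM in control, YAP5SA and knockout libraries respectively, 3.15-fold (1.996 to 5.14) higher in the knockout than in the control. Olfm4, a granule protein of a subset of neutrophils, was at 1292, 675 and 2063 CPM. Both comparisons share the same 14 control cells.

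The promoters of 3 of these genes are shown because the granule genes are known targets of C/EBP factors, and because Cebpe, the factor of that family needed for secondary granules, was detected in the members. RefSeq promoters of the GRCm38.p6 build were searched for TTNNGCAA, a loose form of the C/EBP site, on both strands of the 250 bases before the start. The deposited files use GRCm39, so these coordinates are of the older build. Each line gives the 150 bases before the start, 5′ to 3′ on the gene's strand, with matches in capitals.
Ngp: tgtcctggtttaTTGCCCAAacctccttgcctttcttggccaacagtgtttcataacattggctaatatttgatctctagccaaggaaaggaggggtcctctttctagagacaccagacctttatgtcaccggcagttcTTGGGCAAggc
Ltf: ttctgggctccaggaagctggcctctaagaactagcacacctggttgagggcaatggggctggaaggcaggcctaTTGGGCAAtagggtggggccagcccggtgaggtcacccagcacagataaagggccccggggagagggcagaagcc
Camp: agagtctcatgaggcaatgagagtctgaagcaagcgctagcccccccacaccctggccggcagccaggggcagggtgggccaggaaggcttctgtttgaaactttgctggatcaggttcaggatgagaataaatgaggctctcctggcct
The Ngp stretch is chr9:110419658-110419807 on the plus strand, the Ltf stretch chr9:111019142-111019291 on the plus strand and the Camp stretch chr9:109849457-109849606 on the minus strand. All 3 are upstream of the gene. A match was present in 4 of 12 secondary and tertiary granule promoters (Ngp, Ltf, Lcn2 and Mmp8), in 2 of 6 alarmin and 2 of 7 protease inhibitor promoters, in 0 of 10 primary granule promoters, in 3 of 19 late neutrophil promoters and in 9.56% of all 32851 promoters. Camp had none in the window, and a match is a description of the letters, not of binding. Cebpe itself stood at 280.8, 150.6 and 156 CPM in control, YAP5SA and knockout libraries respectively, from 15, 27 and 9 UMIs.

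Alarmins and protease inhibitors were abundant in all 3 libraries. Since S100a8 and S100a9 chose the S100-high cells, their levels are a description. S100a8 stood at 22030.5, 17010 and 29660.1 CPM, and S100a9 at 28582, 22136 and 52664. S100a6 stood at 2358, 2460.2 and 2098 CPM, S100a11 at 1834, 1188 and 2843, and Anxa1 (annexin A1, which limits neutrophil recruitment) at 1086, 1506 and 1005. None of the measured alarmins passed 2-fold in either comparison. The stefins, cytosolic inhibitors of cathepsins that mouse neutrophils make in quantity, differed between the libraries without a test. Stfa1 ran from 0 through 24 to 219 UMIs per control member, from 1 through 14 to 492 in YAP5SA and from 25 through 51 to 294 in the Yap knockout, or 12391 CPM, 7788 and 19415. Stfa2l1 was at 2677, 2494 and 8251 CPM, 3.08-fold (2.55 to 3.74) higher in the Yap knockout than in the control. The stefin genes are near-identical copies in 1 cluster, so how reads were divided among them is uncertain. Of 8 measured inhibitors 0 were higher and 2 lower in YAP5SA, Slpi (secretory leukocyte peptidase inhibitor) at 814.5 against 1685 CPM and Cst3 (cystatin C), and 1 was higher in the Yap knockout. Over all genes 9.95% were higher and 8.04% lower in YAP5SA and 10.5% higher in the Yap knockout.

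The late neutrophil list separated the YAP5SA members from the control. Of 15 measured genes outside the rule, 11 were at least 2-fold higher in YAP5SA S100-high members and 0 lower, against the 9.95% given above, with a median log2 ratio of 1.31 against −0.05 over all genes. The 11 were Il1b, Cxcl2, Il1rn, G0s2, Ier3, Cd14, Hdc, Srgn, Trem1, Il1r2 and Fth1. In the Yap knockout 4 of 14 were higher (Il1rn, Il1b, Mxd1 and Cxcl2) and 0 lower, against 10.5% and 14.5% of all genes, with a median of 0.74. That count was 2 higher and 1 lower by the mean of each cell's CPM, and 2 higher and 2 lower without the cells rich in RNA of other cell types. With TMM factors (edgeR), 12 of 16 were higher in YAP5SA with a median of 1.72, but the median over all genes moved to 0.35 and the split of all genes past 2-fold from 73 higher and 59 lower to 136 and 26. Of all genes past 2-fold, 55.3% were higher without those factors and 84.0% with them. The lead of the list over the median of all genes was present under both.

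Il1b, the gene of interleukin 1β, had at most 1 UMI in any of the 14 control members and was present in 1 of them. In YAP5SA it ran from 0 through 1 to 59 UMIs, with a UMI in 24 of 35, and in the Yap knockout from 0 through 0.5 to 4, in 7 of 14. The summed levels were 18.7, 920.5 and 225.4 CPM. With 1 control UMI the YAP5SA ratio was 49.2 with a counting interval of 8.71 to 1954, and the Yap knockout ratio was 12.04 (1.81 to 511.7). Il1b also differed outside the members, at 18.1, 166.7 and 201.4 CPM in control, YAP5SA and knockout libraries respectively; the member level lay well above that of the other cells in YAP5SA and close to it in both other libraries. Il1rn, the receptor antagonist that blocks interleukin 1, was at 18.7, 295.7 and 381.4 CPM from 1, 53 and 22 UMIs. Il1r2, the decoy receptor for the same cytokine, was at 318.2, 781 and 606.7 CPM, 2.46-fold (1.48 to 4.33) higher in YAP5SA than in the control.

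The Cxcr2 ligands, chemokines that attract neutrophils, were also highest in YAP5SA members. Cxcl2 ran from 0 through 0 to 4 UMIs in control members, in 5 of 14, from 0 through 2 to 132 in YAP5SA, in 29 of 35, and from 0 through 1 to 11 in the Yap knockout, in 8 of 14. At 168.5, 2388 and 398.7 CPM it was 14.2-fold (7.40 to 31.2) higher in YAP5SA and 2.37-fold (1.06 to 5.81) higher in the Yap knockout than in the control. Cxcl2 in cells outside the members was 204.6, 866.5 and 392.7 CPM. The members thus lay clearly above the rest of their library in YAP5SA and close to it in both other libraries, where the control level rests on few UMIs. Cxcl3 was listed at 0, 58 and 1 UMIs in control, YAP5SA and knockout libraries respectively. Against a floor of 3 UMIs over the control sum, Cxcl3 was at least 5.76-fold higher in YAP5SA. Ccl3, a chemokine for monocytes and neutrophils, had 0, 32 and 5 UMIs and was at least 3.18-fold higher in YAP5SA by the same floor.

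Except for Trem1, the other late genes given here stood higher in control members than Cxcl2 did. G0s2, an inhibitor of lipolysis, ran from 0 through 1 to 3 UMIs in control members, from 0 through 6 to 73 in YAP5SA and from 0 through 0.5 to 9 in the Yap knockout, and at 374.3, 1975 and 537.4 CPM it was 5.28-fold (3.36 to 8.74) higher in YAP5SA. Cd14, the coreceptor for lipopolysaccharide, was at 486.7, 1679 and 294.7 CPM, 3.45-fold (2.31 to 5.37) higher in YAP5SA, with a UMI in 34 of 35 cells there and 8 of 14 in each of the other libraries. Srgn (serglycin, the proteoglycan that holds granule contents) was at 1310.2, 3330.5 and 1179 CPM, 2.54-fold (1.98 to 3.31) higher in YAP5SA. Fth1, the ferritin heavy chain, was at 4080.4, 9183 and 6778 CPM, and had a UMI in every S100-high member. Trem1, an amplifying receptor, was at 131, 368.2 and 294.7 CPM, and Hdc, which makes histamine, at 224.6, 736.4 and 416. Mxd1 and Clec4d were close in YAP5SA and the control, at 312.4 against 318.2 CPM and 490.9 against 449.2.

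**Figure D3:**
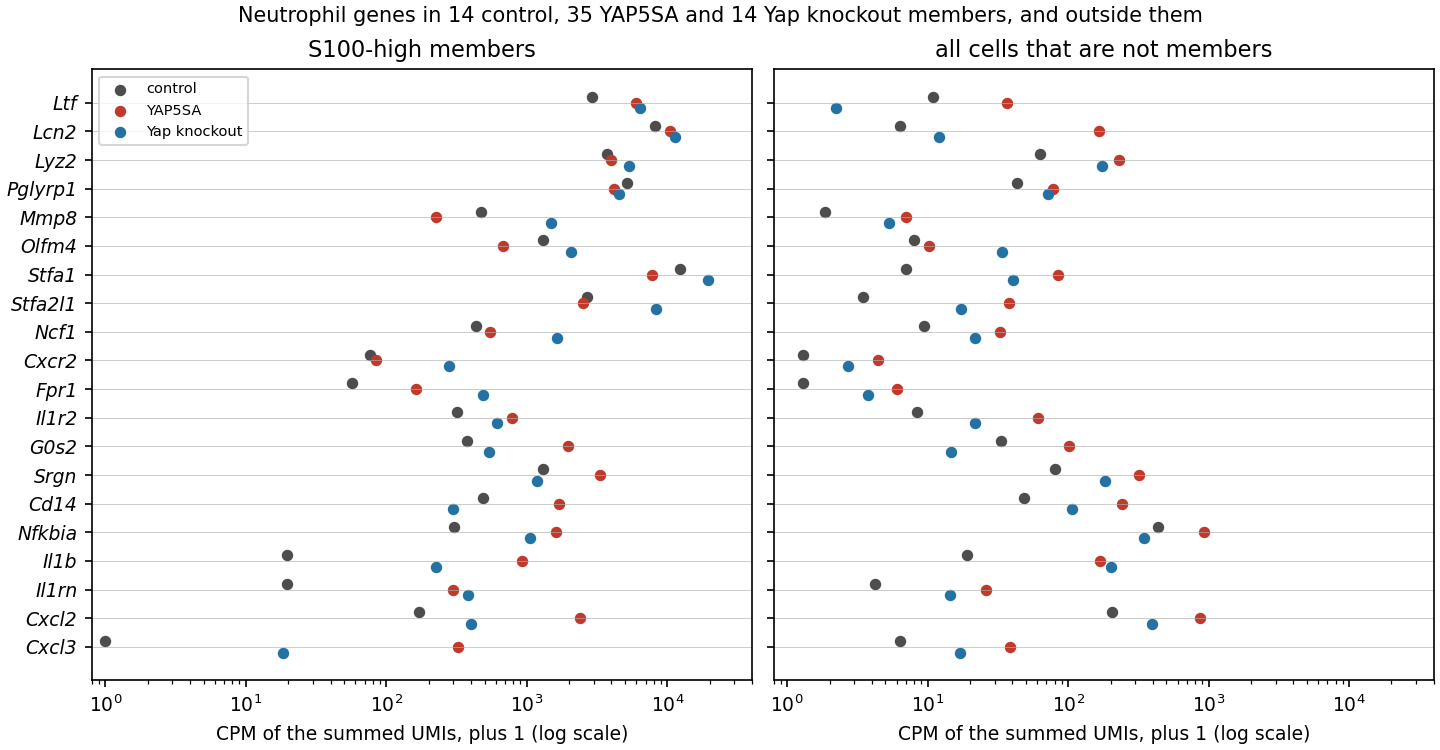
Summed CPM plus 1 (x axis, log scale) of 20 neutrophil genes in S100-high members (left) and in all cells that are not members (right), by library. The granule genes Ltf, Lcn2, Lyz2 and Pglyrp1 lie closer together on the left than Il1b, Cxcl2 and Cxcl3, which are spread out with the control lowest. The granule genes Mmp8 and Olfm4 are also spread out, with YAP5SA lowest.

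Several receptors were highest in the Yap knockout. Cxcr2 was at 74.9, 83.7 and 277.4 CPM from 4, 15 and 16 UMIs, 3.71-fold (1.20 to 15.2) higher in the Yap knockout than in the control, and Cxcr1 had 0 UMIs in all S100-high members. Fpr1, the formyl peptide receptor for bacterial and mitochondrial peptides, was at 56.2, 161.8 and 485.4 CPM, 8.64-fold (2.67 to 44.4) higher in the Yap knockout from 3 control UMIs. Fpr2 was at 131, 111.6 and 416 CPM, 3.18-fold (1.33 to 8.73) higher in the knockout. Of 10 measured receptors and homing genes 6 were at least 2-fold higher in the Yap knockout and 0 lower, against 10.5% and 14.5% of all genes, the other 3 being Itgb2 (the common β2 integrin), Selplg (the P-selectin ligand) and Tlr2. In YAP5SA 1 of 5 was higher, against 9.95% of all genes, Csf2rb, the common β chain of the receptors for GM-CSF and interleukin 3, with 0 UMIs in the control and 38 in 16 of the YAP5SA cells.

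The NADPH oxidase genes, which make the respiratory burst, differed little between YAP5SA and the control. Of 6 measured, 0 passed 2-fold in either direction, and Cyba stood at 1984, 2019.5 and 1924 CPM in the 3 libraries. Ncf1, a cytosolic oxidase subunit, was the 1 gene of 6 higher in the Yap knockout, against 10.5% of all genes, at 430.5, 541.1 and 1629.5 CPM, 3.79-fold (2.38 to 6.26) above the control, with a UMI in 14 of 14 Yap knockout members and 11 of 14 in the control. Among transcription factors and their regulators, 3 of 8 were higher and 0 lower in YAP5SA, against 9.95% and 8.04% of all genes. Nfkbia, the feedback inhibitor of NF-κB, was at 299.5, 1607 and 1057 CPM, 5.37-fold (3.25 to 9.51) higher in YAP5SA and 3.53-fold (2.01 to 6.56) higher in the Yap knockout. Cebpb, the C/EBP factor of emergency granulopoiesis, was at 673.8, 1796 and 1283 CPM, and Junb at 262, 981.9 and 346.7. Spi1, which encodes PU.1, was at 449.2, 518.8 and 797.4 CPM, and Gfi1 had 0 UMIs in all S100-high members.

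Few genes of tissue handling, division, sugar use and interferon response passed 2-fold in YAP5SA. Of the 7 measured handling genes, which dissociation is known to induce, 1 was 2-fold higher in YAP5SA (Junb, named above), against 9.95% of all genes. In the Yap knockout 2 of 8 were higher and 1 lower, against 10.5% and 14.5% of all genes. Fos was at 299.5, 345.9 and 121.3 CPM and Jun at 224.6, 256.6 and 849.4. Of 4 measured division genes 0 passed 2-fold in YAP5SA or the Yap knockout, and so did 0 of the interferon genes, of which 3 were measured in YAP5SA and 2 in the Yap knockout. The summed level of all 18 division genes of the list was 3088.4, 4284.4 and 2114.9 CPM. That of a shorter set of 8 division genes was 336.9, 965.1 and 104 CPM, which is further apart than the whole list. At least 5 UMIs of the shorter set were present in 1 of the 14 control members, 4 of the 35 from YAP5SA and 0 of the 14 from the knockout. Ldha, which makes lactate, was the 1 of 9 glycolysis genes higher in YAP5SA, against 9.95% of all genes, at 505.4, 1183 and 468 CPM. Hilpda, a lipid droplet protein induced by low oxygen, had 0 UMIs in the control and 47 in YAP5SA and was at least 4.67-fold higher, and Basp1 with 0 and 121 UMIs at least 12.02-fold higher, where cells outside the members held 232.2 CPM of Basp1 in the control and 493.6 in YAP5SA.

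The genes with the lowest ratios in YAP5SA were not neutrophil genes. The hormone genes Sst, Ghrl and Pyy, with 369, 49 and 41 UMIs in the control, all had 0 in YAP5SA, and these control UMIs lay in 1 S100-high member of 10438 UMIs that carried Rbp4 as well. Without that cell 9 of 16 measured late genes were higher in YAP5SA and 0 lower, with a median of 1.02 against −0.13 over all genes. Pga5 (pepsinogen), with 449.2 CPM in control members and 0 UMIs in YAP5SA members, was at 2036 CPM in control cells outside the members and 60.8 in those of YAP5SA. Cym (chymosin), 7152 CPM in YAP5SA members and 692.5 in the control, was at 7649 and 4267 outside them, and Krt18, with 64 UMIs in YAP5SA members and 0 in the control, at 1199 and 212.2. These 3 epithelial genes had the same order of the 2 libraries inside and outside the members, and the part of that in the members' values was not tested.

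RNA of other cell types in the S100-high members was measured by marker lists. The 8 eosinophil genes (Epx, Prg2 and others) had 0 UMIs in all 3 libraries. The same held for the basophil genes Mcpt8, Prss34, Fcer1a and Ms4a2, the monocyte genes Ccr2, Ms4a6c and Cx3cr1, the macrophage genes Mrc1, Folr2 and Lyve1, and the T cell genes Cd3e, Cd3g and Trbc2. Other genes of these lists were present. The 10 macrophage genes summed to 2040.2, 1065.5 and 537.4 CPM, from 5, 7 and 5 genes, and the 8 monocyte genes to 561.5, 384.9 and 589.4. The macrophage list includes C1qa, C1qb and C1qc, which the rule held to at most 2 UMIs together in each member. Apoe was the 1 macrophage gene measured between libraries and more than 2-fold lower in both mutants, at 1872, 792.2 and 329.4 CPM. The 6 epithelial genes summed to 205.9, 1685 and 398.7 CPM in control, YAP5SA and knockout libraries respectively, from 3, 6 and 4 genes, with single cells from 0 to 15670 CPM in YAP5SA. The 6 stromal genes summed to 8816, 4251 and 970.8 CPM, and the 7 erythroid genes to 5072, 29907 and 7541, where 1 YAP5SA cell reached 692999.8 CPM. The part of this RNA in the differences between libraries was not tested. With the S100-high members that held 20 epithelial, 100 stromal or 1000 haemoglobin UMIs left out, 9 of 17 measured late genes were higher in YAP5SA and 0 lower, with a median of 1.15.

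Over all members the picture was another one. The YAP5SA sum held 502617 UMIs, of which the S100-high members supplied 179253. Against the control, 1 of 11 measured secondary and tertiary granule genes was then 2-fold higher and 9 were lower, 6 of 8 protease inhibitors were lower, and 4 of 13 late genes were higher and 2 lower, where 12.5% of 751 genes were higher and 15.3% lower. Lcn2, for instance, had a log2 ratio of −1.12 over all members and 0.34 over the S100-high ones. Il1b and Cxcl2 kept their direction, at log2 ratios of 2.87 and 2.62. In the Yap knockout, Mcpt8 and Prss34 led the higher genes over all members, from the 1 basophil-protease cell, where 8.54% of 714 genes were higher and 12.2% lower.

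The S100 cells, chosen with no rule gene, gave larger samples of 21, 216 and 47 cells, of which 14, 33 and 14 are members already described. Of 16 measured late genes outside the rule 12 were at least 2-fold higher in YAP5SA and 0 lower, against 9.52% and 5.48% of 767 genes, with a median log2 ratio of 1.17 against 0.00 over all. Il1b ran from 0 through 0 to 4 UMIs in the control, from 0 through 3 to 62 in YAP5SA and from 0 through 1 to 16 in the Yap knockout. It was present in 4 of 21, 176 of 216 and 29 of 47 cells, at 118.6, 1386 and 1093.5 CPM, 11.7-fold (6.34 to 24.4) and 9.22-fold (4.88 to 19.6) higher than the control. Cxcl2 ran from 0 through 1 to 11, from 0 through 8 to 167, and from 0 through 1 to 11 UMIs, at 438.7, 3718 and 557.8 CPM. YAP5SA S100 cells thus held 8.48-fold (6.14 to 12.1) more Cxcl2 than the control and 6.67-fold (5.31 to 8.48) more than the Yap knockout. The S100 cells had no C1q limit. In those outside the members the C1q genes stood at 892.9 CPM in YAP5SA and 32.3 in the control. Over all S100 cells 3 of 4 measured macrophage genes and 3 of 3 epithelial genes were higher in YAP5SA, against the 9.52% given above. The part of RNA of other cell types in these ratios was not tested.

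Set against each other directly, the S100 cells of the 2 mutants differed in both directions. In YAP5SA 13.6% of 734 measured genes were higher and 9.40% lower. Of 17 measured late genes outside the rule 4 were at least 2-fold higher in YAP5SA and 1 lower. Their median log2 ratio was 0.03 against 0.07 over all, so the late list had no lead between the S100 cells of the 2 mutants. Il1b differed by only 1.27-fold (1.07 to 1.51) between them, while Cxcl3 had 470 UMIs in YAP5SA and 1 in the Yap knockout, a ratio of 62.2 (11.1 to 2460.2). Prtn3 had 516 UMIs in YAP5SA, from 21 cells with 386 in the richest, and 0 in the Yap knockout. Mmp8 was 7.36-fold (5.98 to 9.06) lower in YAP5SA than in the knockout, Cxcr2 3.39-fold (2.35 to 4.82) lower, Fpr2 5.23-fold (3.75 to 7.25) lower, Ncf1 3.13-fold (2.63 to 3.72) lower, and Stfa1 3.36-fold (3.20 to 3.53) lower. Against the control, 6 of 16 late genes were higher in the Yap knockout S100 cells and 0 lower, where 14% of 774 genes were higher and 14.5% lower. The median log2 ratio of these late genes was 0.85, against 0.00 over all. Tnfaip2, a gene induced by tumour necrosis factor, had the highest log2 ratio there, at 59.3 CPM in the control and 990.8 in the Yap knockout, 16.7-fold (6.99 to 52.3) higher.

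Within YAP5SA, the 183 S100 cells outside the members were close to the S100-high members in most genes, with 2.90% of 1620 measured genes at least 2-fold higher and 2.65% lower. The lower ones included Ltf, at 1952 against 5997 CPM, Chil3, at 87.3 against 797.8, and Cd177, a neutrophil surface protein, at 293.4 against 853.5. The higher ones were led by smooth muscle genes such as Tagln, at 899.9 against 156.2 CPM, and by Cd74 and H2-Aa of MHC class II, at 349.2 against 61.4 and 142 against 22.3. By list, 4 of 4 measured macrophage genes and 2 of 4 primary granule genes were higher, against the 2.90% of all genes. The rule left these cells out for fewer than 3 rule genes or for C1q UMIs over its limit. The part of that choice in these differences was not tested.

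Members also varied along the granule order within each library. Comparing late with middle S100-high members, 10 of 460 measured genes outside the rule were at least 2-fold higher in the late range in all 3 libraries (2.17%) and 5 were lower (1.09%). No test was made of this, since the cells of a library share that library, and the ranges were cut from Ngp, Camp, Retnlg and Csf3r. Retnlg was 5.44-fold higher in late than in middle control members and 4.75-fold higher in those of the Yap knockout. In YAP5SA its ratio was 0.823 (0.680 to 0.994), at 2412 and 2931 CPM, while Camp stood at 63.5 and 40857. The late range of YAP5SA thus had less Ngp and Camp but not more Retnlg, and is not the same range as in the other libraries. Ltf was at 1096 CPM in late and 5446 in middle control members, at 38.1 and 11267 in YAP5SA, and at 1714 and 8460 in the Yap knockout. Chil3 and Serpinb1a, an inhibitor of neutrophil elastase and proteinase 3, had 0 UMIs in the late members of every library, and the 12 middle Serpinb1a UMIs of the Yap knockout came from 1 cell. Cybb, the catalytic oxidase subunit, was at 96.7 and 312.5 CPM, at 0 and 533, and at 110.6 and 378.8. Lamtor2 was the fifth gene lower in the late range. For Cybb and Lamtor2 the interval of the ratio held 1 in the control and in the Yap knockout.

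The genes higher in the late range were Cxcl2, Clec4d, S100a6, H2ac19, Il1r2, Srgn, Slc16a3, Lmnb1, Prkcd and Ctsd. For Il1r2, Prkcd and Ctsd the interval of the ratio held 1 in the control. Cxcl2 stood at 290.1 CPM in late and 0 in middle control members, at 4621 and 671.5 in YAP5SA, and at 1106 and 75.8 in the Yap knockout. S100a6 stood at 3481 and 803.5 CPM, at 4265 and 863.4, and at 5584 and 505.1, so it was 4.33-fold (2.62 to 7.59), 4.94-fold (3.87 to 6.38) and 11.1-fold (6.80 to 18.9) higher in the late range. Clec4d, a C-type lectin receptor, stood at 741.4 and 44.6, at 875.9 and 170.5, and at 774 and 25.3. Of 12 measured late neutrophil genes outside the rule 4 were at least 2-fold higher in the late range in all 3 libraries, against the 2.17% given above, and of 12 secondary and tertiary granule genes 3 were lower, against 1.09%.

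Other granule genes differed between libraries along this order. Lcn2 stood at 5705 CPM in late and 11650.2 in middle control members, at 2285 and 17790.3 in YAP5SA, and at 7353 and 13132 in the Yap knockout. Olfm4 stood at 1515 and 982 CPM in the control and 2598 and 1818 in the Yap knockout, where the interval of the ratio held 1 in both, and at 139.6 and 1119 in YAP5SA. Cd177 was at 902.6 and 803.5, at 177.7 and 1428, and at 1714 and 1995. Il1b stood at 1942 CPM in late and 117.3 in middle YAP5SA members, 16.6-fold (9.002 to 33.9) higher, at 552.9 and 75.8 in the Yap knockout, and at 1 and 0 UMIs in the control, so 153 of the 165 Il1b UMIs of YAP5SA lay in the late range.

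**Figure D4:**
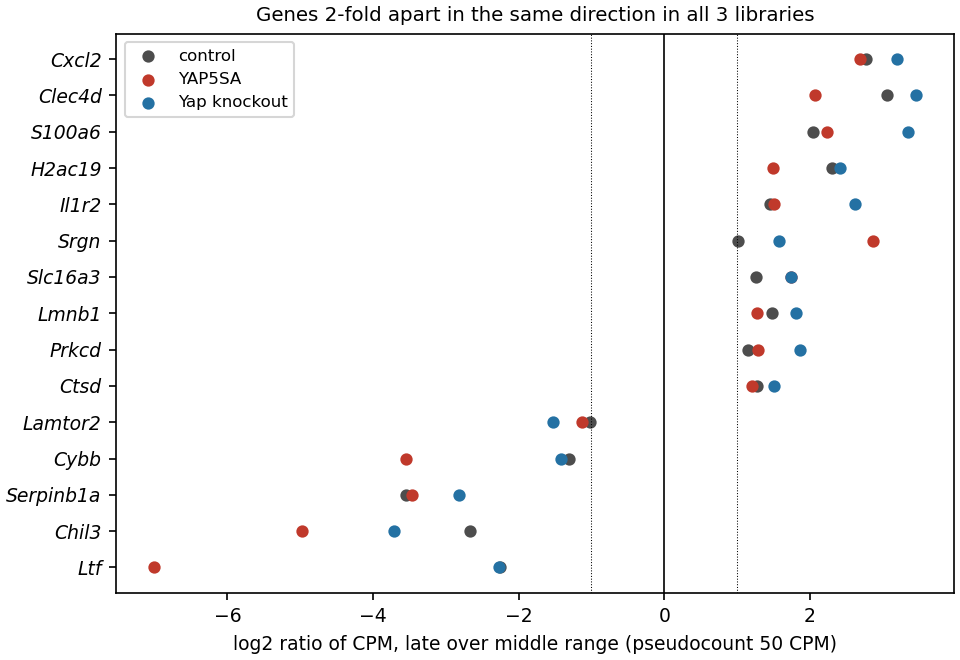
The log2 ratio of late over middle S100-high members (x axis, CPM with 50 added) in each library for the 15 genes that were 2-fold apart in the same direction in all 3. Ltf, Chil3 and Serpinb1a lie on the left in every library, and Cxcl2, Clec4d and S100a6 on the right.

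Against the cells most like them in YAP5SA, the S100-high members stood apart in the genes of granules and stefins. C1q cells (5 or more C1q UMIs and under 3 rule genes, tissue macrophages by their markers, 1782 cells) and MHC class II cells (96 cells) were used for this. Against C1q cells 18.2% of 1756 measured genes were at least 2-fold higher and 11.6% lower, and against MHC class II cells 17.4% of 1765 were higher and 13.5% lower. Over all 68 members, 6.91% of 1564 genes were higher than in C1q cells and 3.77% lower. Among genes outside the rule, high ratios to C1q cells were those of Cstdc5, a stefin relative, at 12017 against 34.8 CPM, Ltf, at 5997 against 9.49, and Stfa3, at 2566 against 7.20. Cxcl2 did not separate the cell types, at 2388 CPM in S100-high members and 1662 in C1q cells of YAP5SA, while Il1b stood at 920.5 and 242.5.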

How the data were processed

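UMI counts per gene and cell were deposited by the authors as 3 matrices, 1 per genotype, made with PISA 1.0 per the file headers and with STAR and GRCm39 per the submitters' processing notes; they are raw counts. Members, gene lists and comparisons were chosen with earlier results of these data known, and the limits on S100a8 and S100a9 UMIs of S100-high members, the S100-high comparisons and the late against middle comparison were chosen after seeing the data. Each set of cells was summed gene by gene, and sums are given as CPM. Ratios carry exact conditional Poisson intervals and shares exact Clopper-Pearson intervals, both at 95%, and a sum at 0 UMIs was set to a floor of 3 counts for a bound. With 1 library per genotype no test was made, and 2-fold marks size only.

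Between libraries a gene was measured at 200 CPM or more in either sum, with 50 CPM added to both for the log2 ratio; within YAP5SA these were 100 and 20 CPM. The genes named outside the lists are the 10 highest and 10 lowest log2 ratios, without rule, mitochondrial, ribosomal, haemoglobin, X-inactivation, Y-linked and predicted genes; lists may be named in full. Scrublet (scanpy 1.11.5) called 3, 4 and 0 doublets by its own threshold and so had not worked; removing the highest 6% of scores (413, 511 and 311 cells) was an alternative, and doublets were otherwise kept. edgeR 4.0.16 (R 4.3.3) supplied TMM factors only. The code was tested on simulated data. Tables were made with pandas 2.3.3 and numpy 2.4.6, intervals with scipy 1.17.1 and plots with matplotlib 3.10.9, all in Python 3.11.15.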

Additional observations from a re-analysis of the deposited data

Results flagged for a closer look

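In YAP5SA, 183 cells outside the members held 10 or more UMIs each of S100a8 and S100a9, against 7 in the control. They drew attention as neutrophil signal in cells that the member comparisons leave out, above the control level. In the same library 5 cells outside the members held 10 or more UMIs of Mpo, Elane and Ctsg together, against 1 in the control, and drew attention for the same reason. All 5 also held Ly6c2, a monocyte gene, at 3 to 95 UMIs. Neither difference was tested, since each genotype is 1 library.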

How the results depend on the processing

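No paired analysis was possible because each genotype has 1 library. Of the values that answer a comparison, 88 stayed close to the value given and 48 moved, and of the single genes 878 stayed close, 253 moved and 6 reversed; the cause was not tested unless the setting itself shows it. The member share depended on the rule. In the order control, YAP5SA and Yap knockout it was 0.868%, 3.83% and 1.12% with 2 of 7 rule genes and 0.0407%, 0.0886% and 0.0961% with 4. Without Ngp it was 0.0543%, 0.255% and 0.173%, without Camp 0.0543%, 0.310% and 0.135%, and without Retnlg 0.0407%, 0.222% and 0.0961%, where with 4 of 7 genes the Yap knockout share was the highest. With members holding 3 UMIs of other classes removed it was 0 in each library. In YAP5SA the share was 0.454% without Csf3r, 0.233% with a C1q limit of 0 (Yap knockout 0.135%), 2.56% with no C1q limit and 0.343% with cells thinned to 1000 UMIs. The following settings were chosen after seeing the data: the YAP5SA share was 1.99% with a C1q limit of 10, 2.19% with one of 0.1% of UMIs, and 0.388% for S100-high members, of which 51.4% were late. At 30 UMIs each the S100 cell share was 1.01% in YAP5SA and 0.635% in the Yap knockout.

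For YAP5SA against the control over all members, 94 genes were higher and 115 lower; the counts were 192 and 71 with TMM factors, 197 and 193 at a floor of 100 CPM, and 50 and 56 at 400 CPM, with 143 higher by the mean of each cell's CPM, 59 lower in S100-high members and 42 lower in S100 cells. In S100-high members they were 136 and 26 with TMM factors, 141 and 94 by the mean of each cell's CPM, and 33 lower with 100 CPM added. For the Yap knockout, 108 genes were higher in S100 cells. For late against middle, 8 genes were lower at a floor of 100 CPM and 3 over all members, and 16 were higher and 3 lower without cells near the cut. The log2 ratio reversed for Actg2 (−0.26) and Lcn2 (0.34) in S100-high members, Tff2 (−0.20) in S100 cells, Prtn3 (1.86) without cells rich in RNA of other classes, Rbp4 (0.15) without the Sst cell, and Ifitm1 (−1.57) in Yap knockout S100-high members. The planned early against late comparison in YAP5SA was not run, since its early range held 0 members. Few cells, 14 to 35 a library, limit every level.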

Other observations

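Genes that draw neutrophils were also read in the cells around the members. Cxcl5, a Cxcr2 ligand made by epithelia, had 671 UMIs in 98 of 874 Epcam-positive cells of YAP5SA (48.5 CPM) and 0 in those of the control and of the Yap knockout. Cxcl1, another Cxcr2 ligand, stood at 12.1, 25.6 and 7.02 CPM in Epcam-positive cells and at 198.4, 147.3 and 184 in C1q cells of the control, YAP5SA and the Yap knockout. Csf3, the growth factor for granulocytes, had 0, 83 and 9 UMIs in the 125, 874 and 233 Epcam-positive cells. These sets differ in size, and the raw UMIs of Csf3 and Cxcl5 are not scaled for it. In C1q cells Csf3 stood at 23.7, 16.0 and 48.4 CPM. Cxcl2 stood at 1670.0, 1662 and 2766 CPM in C1q cells, and Il1b at 113.3, 242.5 and 689.7.

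Some granule genes had RNA in epithelial cells. Lcn2 stood at 5.71, 300.9 and 4.30 CPM in Epcam-positive cells. Ltf stood at 102.7 CPM in those of the control, from 162 UMIs in 6 cells, and at 9.18 and 2.27 CPM in those of YAP5SA and the Yap knockout.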
